A study of Mus musculus with 2 samples.

Results

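Gadd45a, Gadd45b, Gadd45g, Dusp1, Zfp36, Ier3 and Cdkn1a were measured in 1 liver section each of an AEG-1-C75S and an AEG-1-WT mouse. These 7 genes, of 19465 in the count tables, were chosen by their symbols, with their measured levels in both sections and along the lobule already known. Their difference between the sections and their course along the lobule are therefore a description, with no test. All 7 were found, each in 1 row, and all 7 had at least 200 UMIs over both sections.

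Tissue came from an AEG-1-C75S mouse and its AEG-1-WT littermate, both naïve females of 8 weeks, from the same liver lobe, fixed in formalin. AEG-1-C75S mice carry, in every cell, a CRISPR/Cas9 knock-in that turns the cysteine 75 of AEG-1 (gene Mtdh), where the protein is palmitoylated, into a serine, and both mice came from matings of heterozygotes. One section of 5 μm per mouse was hybridised with the probes of the 10x Visium assay, and unique molecular identifiers (UMIs) were counted on spots, which are small regions with several cells. With 1 section per genotype there was no replicate and no test between the genotypes, so every ratio compares these sections.

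Cells under stress or exposed to growth factors switch on genes that hold the response in check. The GADD45 proteins bind and activate the kinase MAP3K4 upstream of p38 and JNK and bind partners in cell cycle arrest and DNA repair, and they are induced in liver by injury, fasting and regeneration. Dusp1, Zfp36, Ier3 and Cdkn1a act on MAP kinases, on short-lived mRNAs, on cell survival and on cyclin-dependent kinases, in that order.

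The windows of Gadd45b, Gadd45g and Dusp1 below are shown because they share the E-box, and that of Zfp36 because it holds a CArG box. Each is the 250 bases before the gene's start, 5′ to 3′ on the gene's strand, from RefSeq (GRCm38.p6). Capitals mark the E-box CACGTG, the cAMP response element (CRE) TGACGTCA, the CCAAT box, the TATA box TATAAA and, in Zfp36, the CArG box, which binds serum response factor.
Gadd45b, chr10:80929841-80930090, strand +: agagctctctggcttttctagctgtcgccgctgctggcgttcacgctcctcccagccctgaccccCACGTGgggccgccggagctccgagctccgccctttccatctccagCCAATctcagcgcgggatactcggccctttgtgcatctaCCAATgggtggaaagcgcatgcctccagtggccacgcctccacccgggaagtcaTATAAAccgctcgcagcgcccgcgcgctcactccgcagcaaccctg
Gadd45g, chr13:51846425-51846674, strand +: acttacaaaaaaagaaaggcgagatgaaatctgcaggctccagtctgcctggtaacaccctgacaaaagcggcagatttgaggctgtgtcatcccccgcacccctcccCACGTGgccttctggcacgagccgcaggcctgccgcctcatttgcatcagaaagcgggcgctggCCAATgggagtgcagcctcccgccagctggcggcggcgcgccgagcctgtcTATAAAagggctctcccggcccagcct
Dusp1, chr17:26508473-26508722, strand -: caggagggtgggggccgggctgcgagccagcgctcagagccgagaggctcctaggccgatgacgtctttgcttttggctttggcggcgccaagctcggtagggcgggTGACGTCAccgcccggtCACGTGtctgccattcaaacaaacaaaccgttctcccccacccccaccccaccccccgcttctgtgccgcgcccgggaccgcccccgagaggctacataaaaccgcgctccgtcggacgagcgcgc
Zfp36, chr7:28379229-28379478, strand -: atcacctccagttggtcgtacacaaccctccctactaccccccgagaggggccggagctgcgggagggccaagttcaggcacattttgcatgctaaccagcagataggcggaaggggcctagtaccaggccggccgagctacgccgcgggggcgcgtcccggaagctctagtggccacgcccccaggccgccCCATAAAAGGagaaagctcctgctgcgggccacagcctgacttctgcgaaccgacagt

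The E-box CACGTG was in the windows of Gadd45b, Gadd45g and Dusp1 and in 6.02% of the 32851 windows of all genes, read on both strands. Gadd45b and Gadd45g also shared a TATAAA, which 12.4% of all windows hold, and with Gadd45a and Ier3 a CCAAT box, which 33.8% hold. The CRE of Dusp1 was in 1.55% of all windows, and the CArG box of Zfp36 in 1.47%. No AP-1 site (TGANTCA) was in the windows of the 7 genes, against 6.75% of all windows. Zfp36 had 1 match of the STAT site TTCNNNGAA, found in 7.02% of all windows, and Ier3 had an NF-kB site, found in 7.25%. Both windows listed for Cdkn1a, which has 2 starts in RefSeq, held none of these motifs. The windows of the 7 genes had 54.0% to 68.4% G and C, above the median of 52.4% over all windows. These matches describe the sequence and say nothing of which factor was bound.

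Gadd45b, Gadd45g, Cdkn1a and Zfp36 were at higher levels in the AEG-1-C75S section, by 2.46-fold, 3.48-fold, 3.29-fold and 1.50-fold, while Gadd45a and Dusp1 were higher by 1.18-fold and 1.23-fold and Ier3 was at 1.07-fold. Levels are UMIs per 1000000 UMIs of the section (CPM), over spots with at most 50000 UMIs. A gene is counted as higher or lower where its log2 ratio lies past 0.32 in either direction (25% higher or 20% lower). Of the 7 genes, 4 were higher and 0 were lower by this limit, beside 5.90% and 11.6% of the 10394 genes with at least 200 UMIs. The median log2 ratio was 0.59 over the 7 genes and -0.05 over all genes tested. Intervals given below are exact 95% intervals of the UMI sums and cover counting error only. Those for spots rich in a marker list or in a member are approximate. They take the weighting of the other spots to the same bins of the lobule as fixed. Probe numbers per gene are not in the tables, so levels of different genes are not compared.

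**Figure D1:**
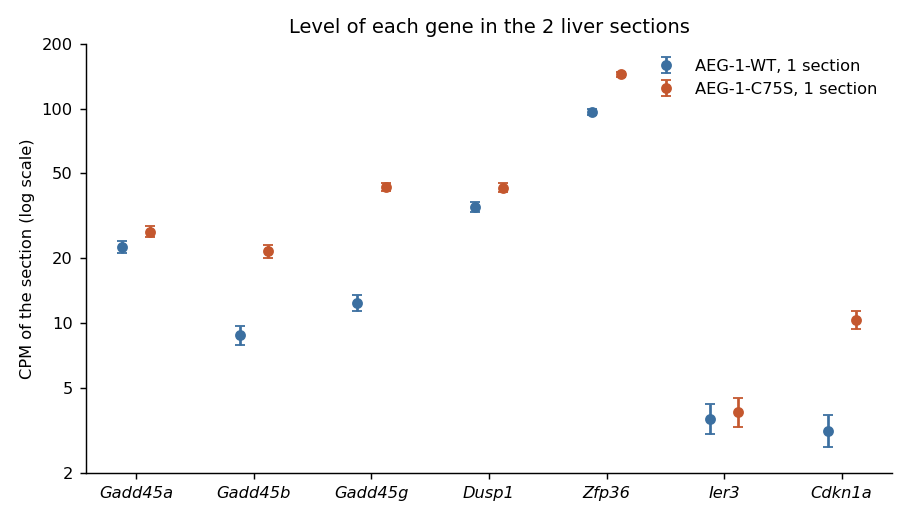
CPM of each of the 7 genes (vertical axis, log scale) in the AEG-1-WT section (blue) and the AEG-1-C75S section (orange), with exact 95% Poisson intervals as bars. The intervals of the sections are apart for Gadd45a, Gadd45b, Gadd45g, Dusp1, Zfp36 and Cdkn1a and overlap for Ier3.

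Gadd45g, the GADD45 member known as a cytokine-responsive gene, had 523 UMIs, or 12.4 CPM (11.3 to 13.5), in AEG-1-WT against 1797, or 43.1 CPM (41.1 to 45.2), in AEG-1-C75S. The ratio of 3.48 had an interval of 3.16 to 3.85 and was the 7th highest of the genes tested. A UMI of Gadd45g was on 19.7% of the AEG-1-WT spots and on 53.4% of the AEG-1-C75S spots, and on 4.08% and 11.9% after each spot was thinned to 3000 UMIs. No AEG-1-WT spot had over 4 UMIs, and no AEG-1-C75S spot over 7. A higher level alone puts a gene on more spots. These shares therefore cannot tell a wider spread over spots from a higher level on each.

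Gadd45b, the member induced by TGF-beta, NF-kB and growth signals, had 370 UMIs (8.76 CPM, 7.89 to 9.70) in AEG-1-WT against 899 (21.6 CPM, 20.2 to 23.0) in AEG-1-C75S. Its ratio was 2.46 (2.18 to 2.79). Spots with a UMI were 14.1% in AEG-1-WT against 32.4% in AEG-1-C75S. Gadd45a, the p53-inducible member, differed far less, with 956 UMIs (22.6 CPM, 21.2 to 24.1) against 1113 (26.7 CPM, 25.2 to 28.3) and a ratio of 1.18 (1.08 to 1.29). The intervals of the Gadd45a, Gadd45b and Gadd45g ratios do not overlap. They hold no spread between mice, so this describes these sections only.

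Dusp1 encodes MKP-1, the phosphatase that switches off p38, JNK and ERK. It had 1471 UMIs (34.8 CPM, 33.1 to 36.6) in AEG-1-WT against 1783 (42.8 CPM, 40.8 to 44.8) in AEG-1-C75S, a ratio of 1.23 (1.15 to 1.32). This lies just under the limit, which the gene passes under 5 of the 10 other ways of computing the ratio, whose log2 ratios run from 0.23 to 0.38. Zfp36 encodes tristetraprolin, which binds AU-rich elements and brings mRNAs to decay. It had 4066 UMIs (96.2 CPM, 93.3 to 99.2) in AEG-1-WT against 6017 (144.4 CPM, 140.8 to 148.1) in AEG-1-C75S, a ratio of 1.50 (1.44 to 1.56). A UMI of Zfp36 was on 79.1% and 87.5% of the spots.

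Cdkn1a encodes p21, the inhibitor of cyclin-dependent kinases downstream of p53. It was rare in both sections, with 133 UMIs (3.15 CPM, 2.64 to 3.73) in AEG-1-WT against 432 (10.4 CPM, 9.41 to 11.4) in AEG-1-C75S. The ratio was 3.29 (2.71 to 4.03), and its log2 value of 1.72 became 2.35 after thinning to 3000 UMIs, which leaves few UMIs of the gene. Spots with a UMI were 5.37% in AEG-1-WT against 17.2% in AEG-1-C75S. Ier3, an early response gene of cell survival, had 151 UMIs (3.57 CPM, 3.03 to 4.19) and 160 (3.84 CPM, 3.27 to 4.48). Its ratio of 1.07 had an interval of 0.855 to 1.35, so a difference was not detectable at this depth.

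Markers of other cells differed between the sections too. Of the markers with at least 200 UMIs, 4 of 5 of Kupffer cells were higher in AEG-1-C75S by the limit (whole list summed, 1159 CPM against 866), and so were 3 of 4 of stellate cells (703 against 551) and 2 of 2 of neutrophils (10.8 against 5.40). Of lymphocytes, 0 of 4 passed (24.4 against 20.9). All 7 connective tissue markers were lower (77.6 against 170), as were 3 of 4 of cholangiocytes (96.6 against 129) and 4 of 4 of red blood cells (416 against 627). Acta2, the actin of smooth muscle cells, had 396 UMIs in AEG-1-WT against 37 in AEG-1-C75S. Without the spots richest in connective tissue or cholangiocyte markers, the log2 ratios were 1.38 for Gadd45b, 1.86 for Gadd45g, 0.60 for Zfp36 and 1.84 for Cdkn1a, each as large as with them. Both of these lists were lower in AEG-1-C75S. Spots rich in markers of Kupffer cells, stellate cells or neutrophils, which were higher there, were not left out. The part of these cells was not tested beyond the spots described below. On spots, fewer cells of a type and less RNA per cell cannot be told apart. The spots kept had medians of 16830 UMIs in AEG-1-WT against 18808 in AEG-1-C75S, with 5% to 95% ranges of 11460 to 29950 and 6598 to 33879. The libraries shared 1896 barcodes, of 2316 and 2167 spots, and a Visium barcode marks a position on the slide, not a cell.

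The lobule axis was the ratio (Cyp2f2 + 1)/(Cyp2e1 + 1) of each spot, which cuts each section into 5 bins of equal spot number, from bin 1 (most periportal, toward the portal tracts) to bin 5 (most pericentral, toward the central veins). Cyp2f2 is a periportal and Cyp2e1 a pericentral cytochrome P450. Between these ends, Cyp2f2 went from 2445 to 370 CPM in the AEG-1-WT section, whereas it went from 2775 to 569 in AEG-1-C75S. Cyp2e1 went the other way, from 2153 to 13168 and from 2296 to 12014 CPM. The zone 1 enzyme Hal and the zone 3 enzyme Cyp1a2, which the axis does not use, ordered the same way, with Hal at 364 and 83.4 CPM and Cyp1a2 at 164 and 870 CPM in bins 1 and 5 of AEG-1-WT.

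Gadd45a and Zfp36 were pericentral in both sections, Gadd45b and Dusp1 stayed within the limit between the end bins, and Gadd45g had a periportal course in AEG-1-WT only. Differences between the end bins past the limit, in the same direction in both sections, were found for 2 of the 7 genes, both pericentral, beside 9.44% of all genes tested with a pericentral and 4.43% with a periportal course. Gadd45a was at 17.0, 21.6, 22.6, 27.7 and 23.9 CPM from bin 1 to bin 5 of AEG-1-WT, and at 17.8, 23.3, 27.0, 31.1 and 34.2 in AEG-1-C75S. The pericentral end was thus 1.92-fold higher (1.57 to 2.37) in AEG-1-C75S, compared with 1.41-fold (1.12 to 1.77) in AEG-1-WT. These intervals overlap. The sections did not differ beyond counting error at the periportal end, with a ratio of 1.05 (0.820 to 1.33), and were 1.43-fold apart (1.19 to 1.73) at the pericentral end. After the spots were thinned as above, the log2 ratio of the periportal over the pericentral end was -0.58 (-1.33 to 0.14) in AEG-1-WT. It was -0.57 (-1.30 to 0.14) in AEG-1-C75S, on 28 to 43 UMIs per end bin in the sections. The steeper course of Gadd45a in AEG-1-C75S was thus not seen after thinning. With so few UMIs, whether the sections differ in steepness cannot be decided.

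Zfp36 was at 85.5, 91.1, 92.6, 103 and 109 CPM in AEG-1-WT against 131, 127, 142, 153 and 170 in AEG-1-C75S. Its pericentral end was 1.27-fold (1.15 to 1.41) and 1.30-fold (1.20 to 1.41) higher, near the limit. AEG-1-C75S was higher by 1.39-fold to 1.56-fold in every bin, so the curves ran side by side. Gadd45b, too, differed by a like factor throughout, from 2.23-fold to 2.96-fold, on levels of 8.05 to 9.69 CPM in AEG-1-WT against 18.8 to 23.8 in AEG-1-C75S that had no slope beyond their intervals.

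Gadd45g was at 16.1, 12.3, 13.0, 11.7 and 8.81 CPM in AEG-1-WT against 42.9, 42.9, 41.7, 41.1 and 46.9 in AEG-1-C75S. The periportal end was 1.83-fold higher (1.36 to 2.49) in AEG-1-WT, whereas the ends of AEG-1-C75S did not differ beyond counting error, at 0.914 (0.789 to 1.06). The sections therefore differed by 2.66-fold (2.17 to 3.29) in bin 1 and by 5.33-fold (4.12 to 6.98) in bin 5. After thinning to 3000 UMIs per spot, which leaves 18 to 68 UMIs of Gadd45g per end bin, the log2 ratio of the periportal over the pericentral end was 0.53 (-0.39 to 1.48) in AEG-1-WT against -0.53 (-1.10 to 0.02) in AEG-1-C75S. That of Gadd45b, on 9 to 31 UMIs, was then -0.74 (-2.11 to 0.55) and 0.10 (-0.68 to 0.88), past the limit in the former. On an axis of 7 other zone markers, the log2 ratio of Gadd45g, periportal over pericentral end, was 0.51 (0.10 to 0.93) in AEG-1-WT against -0.17 (-0.39 to 0.04) in AEG-1-C75S.

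Dusp1 was at 32.7 to 37.1 CPM in the bins of AEG-1-WT and at 41.5 to 45.1 in AEG-1-C75S, with ratios of the sections of 1.12 to 1.38. Cdkn1a was lowest at the pericentral end of AEG-1-C75S, with 7.03 CPM against 12.8 in bin 2, and its AEG-1-WT bins had only 18 to 37 UMIs each. The periportal end was 1.49-fold higher (1.06 to 2.12) in AEG-1-C75S and the interval in AEG-1-WT was 0.491 to 2.04. Ier3 had 25 to 40 UMIs per bin in either section, and its ends did not differ beyond their intervals.

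**Figure D2:**
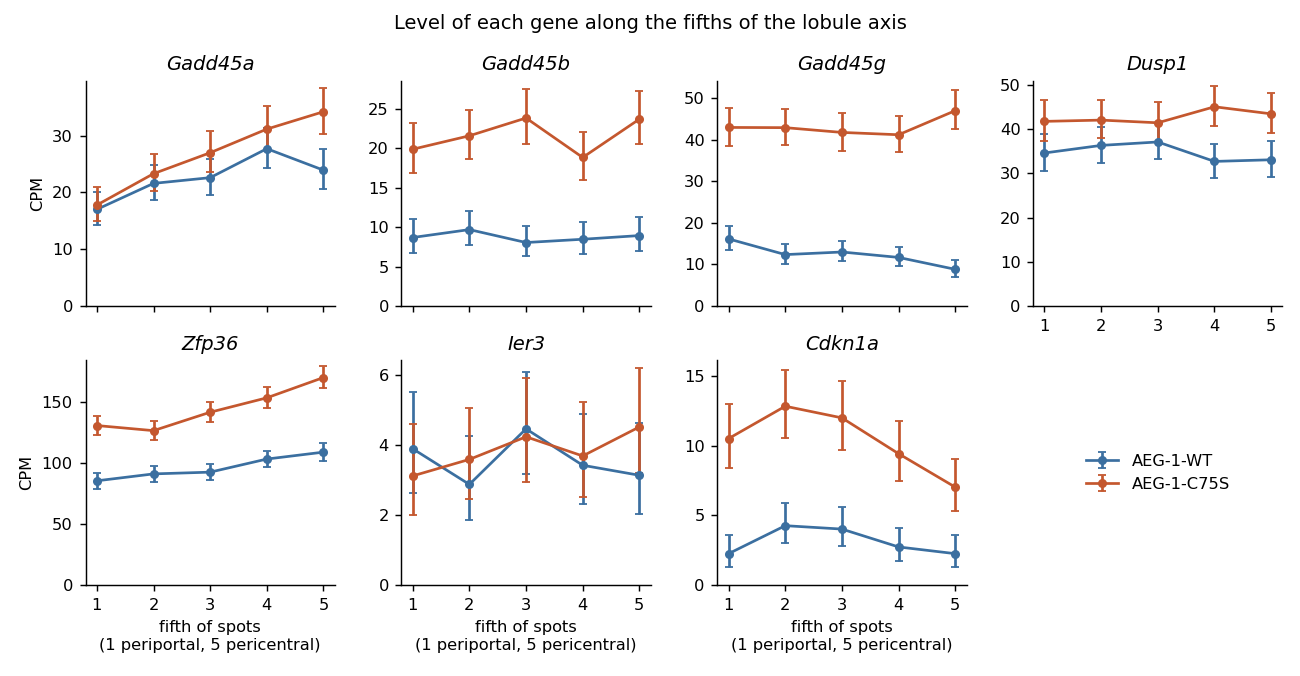
CPM of each of the 7 genes (vertical axes from 0) in the bins of spots from periportal (1) to pericentral (5), in AEG-1-WT (blue) and AEG-1-C75S (orange), with exact 95% Poisson intervals as bars. Gadd45a and Zfp36 are higher at the pericentral than at the periportal end in both sections. Gadd45a in AEG-1-WT is highest in bin 4, at 27.7 CPM, and at 23.9 CPM in bin 5. Gadd45g declines in AEG-1-WT only, from 16.1 to 8.81 CPM.

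Within a bin, the UMIs of the 7 genes were scattered over the spots nearly as a Poisson draw would scatter them. The variance over the Poisson value lay between 0.965 and 1.19 in AEG-1-WT, whereas it lay between 1.03 and 1.11 in AEG-1-C75S. Over all genes tested the medians were 1.01 and 1.02, with 95th percentiles of 1.14 and 1.13. For genes absent from most spots, such as Ier3 and Cdkn1a, this measure has little room to differ from 1. A value near 1 cannot show that their UMIs did not gather. Gadd45b in AEG-1-WT, at 1.19, owed most of its excess to 1 spot with 7 UMIs, without which it was at 1.09. Spot positions were not used here. Spots with 3 or more UMIs of Gadd45g numbered 7 in AEG-1-WT against 147 in AEG-1-C75S, and those of Dusp1 80 and 152. These numbers are not scaled to depth, and the median spot had 16830 UMIs in AEG-1-WT against 18808 in AEG-1-C75S. They are therefore no measure of the fold difference or of gathering.

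The genes were next read in spots rich in another cell type, taken as the 10% of spots with the highest share of UMIs from that type's markers and set against the other spots of the same bins. Over 8 marker lists and 7 genes, 3 of 56 combinations passed the limit in the same direction in both sections. The share over all genes was computed only for higher levels in cholangiocyte-rich and connective tissue-rich spots. Whether 3 of 56 is many or few therefore cannot be decided. In cholangiocyte-rich spots, where the duct markers were 11.9-fold and 10.3-fold higher, Gadd45b was 1.28-fold higher (1.02 to 1.58) in AEG-1-C75S, compared with 1.91-fold (1.44 to 2.51) in AEG-1-WT. Of all genes tested, 9.48% were higher by the limit there in both sections. Of the 7 genes, Gadd45b alone passed in both sections, while Ier3 was 2.13-fold higher (1.37 to 3.22) in AEG-1-WT, with an interval of 0.523 to 1.77 in AEG-1-C75S. The other 2 combinations were lower levels of Ier3 in spots rich in sinusoidal endothelium or red blood cell markers, on 7 to 11 UMIs per section, with intervals that include 1.

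In connective tissue-rich spots, 0 of the 7 genes passed in both sections, beside 10.0% of all genes tested. Ier3 and Cdkn1a were there 1.87-fold (1.17 to 2.87) and 1.71-fold (1.04 to 2.71) higher in AEG-1-WT, with intervals of 0.573 to 1.86 and 0.540 to 1.18 in AEG-1-C75S. Gadd45b was 1.28-fold higher (1.02 to 1.59) in AEG-1-C75S, with an interval of 0.857 to 1.63 in AEG-1-WT. Dusp1 was there 1.31-fold higher (1.12 to 1.52) in AEG-1-WT against 1.04 (0.880 to 1.23) in AEG-1-C75S, whose list was enriched 6.77-fold there against 14.3-fold in AEG-1-WT. In Kupffer-rich spots, Gadd45b was at 1.21 (0.838 to 1.69) in AEG-1-WT against 1.08 (0.865 to 1.34) in AEG-1-C75S, Gadd45g at 0.814 (0.572 to 1.13) and 1.14 (0.975 to 1.33), and Zfp36 at 0.973 (0.868 to 1.09) and 0.994 (0.910 to 1.08). In AEG-1-C75S, Ier3 was 1.98-fold (1.26 to 3.01, on 27 UMIs) and Gadd45a 1.22-fold (1.01 to 1.48) higher there, with intervals of 0.502 to 1.71 and 0.676 to 1.11 in AEG-1-WT. The Kupffer markers were enriched only 2.17-fold and 1.96-fold in those spots, so this comparison is coarse. The neutrophil markers had 228 UMIs in AEG-1-WT, fewer than the 231 spots taken as rich in them, and S100a8 and S100a9 made up nearly all of them. In those spots Gadd45b was 1.53-fold higher (1.14 to 2.03) in AEG-1-WT against 0.965 (0.766 to 1.20) in AEG-1-C75S, and in AEG-1-C75S Ier3 was at 0.341 (0.123 to 0.759) on 6 UMIs and Dusp1 at 0.835 (0.702 to 0.986).

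**Figure D3:**
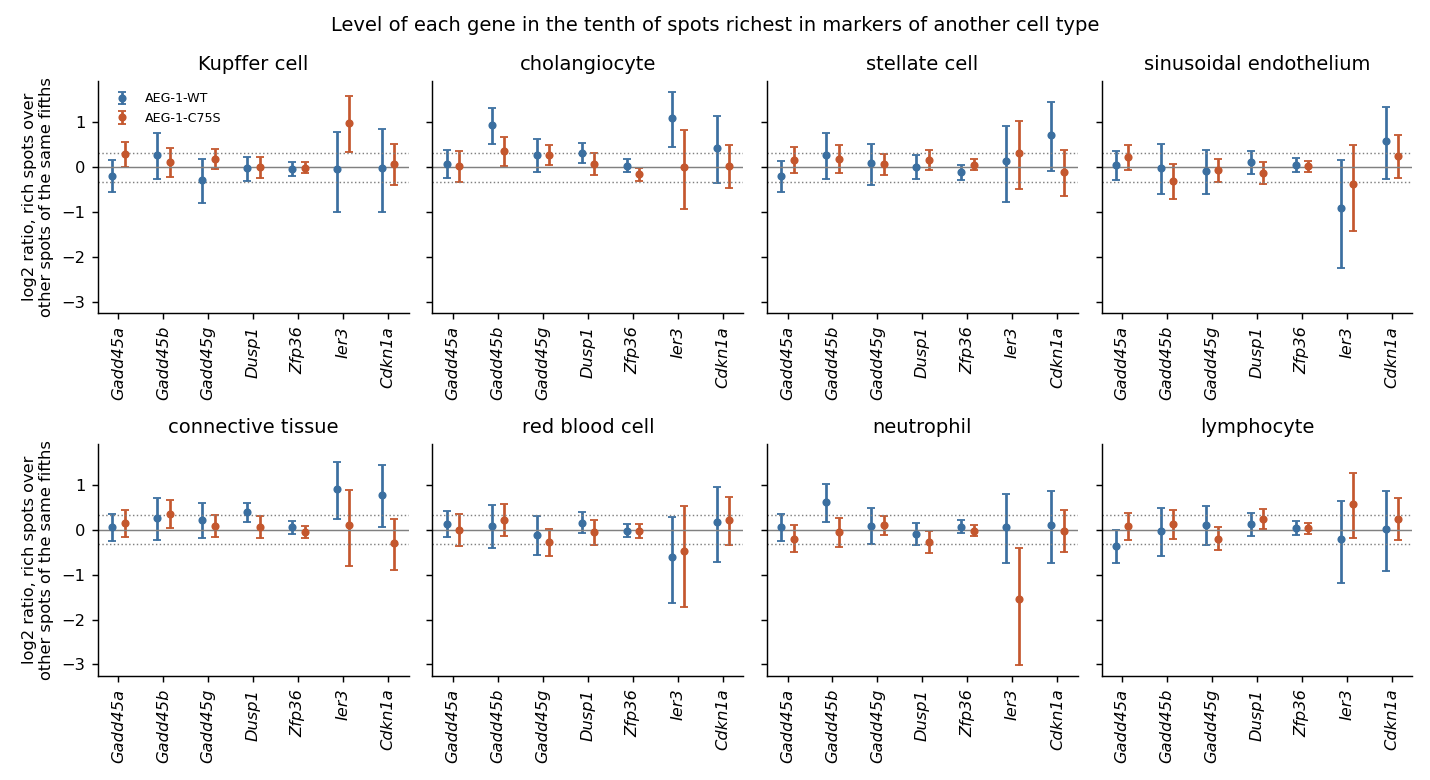
Log2 ratio of the level of each gene in the 10% of spots richest in each marker list over the other spots of the same bins (vertical axes), for 8 lists, in AEG-1-WT (blue) and AEG-1-C75S (orange). Bars are approximate 95% intervals of counting error, and dotted lines mark the limit of 0.32 in either direction. Most points lie between the dotted lines, and Gadd45b in cholangiocyte-rich spots lies above them in both sections.

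At full depth and with the richest 10% of spots, no pair of the 7 genes gathered on the same spots by the limit in both sections. In the 10% of spots with the most UMIs of 1 member, for their bin and depth, the level of another was read against the other spots. A UMI of Ier3 was on only 5.98% of the AEG-1-WT spots against 7.03% in AEG-1-C75S. For Cdkn1a it was 5.37% in AEG-1-WT. These shares are under 10%, so the spots taken as rich there include spots with no UMI of the gene. Sharing of spots with these rare genes therefore cannot be decided. Of 42 ordered pairs, 0 were higher by the limit in both sections and 1 was lower, Ier3 in Gadd45g-rich spots, on 7 and 9 UMIs. No share over other gene pairs was computed. The interval was off 0 for 6 pairs in AEG-1-WT against 9 in AEG-1-C75S, and above 0 in both sections for 0. Ier3 in Dusp1-rich spots was at 2.17 in AEG-1-WT (log2 interval 0.49 to 1.70) but at 0.494 in AEG-1-C75S (-2.17 to -0.05). Cdkn1a in Ier3-rich spots was at 1.85 in AEG-1-WT (0.14 to 1.57) against 1.07 in AEG-1-C75S (-0.40 to 0.57). The median log2 ratio over the pairs was 0.08 in AEG-1-WT against 0.02 in AEG-1-C75S. Gadd45b in Dusp1-rich spots was at 1.21 in AEG-1-WT against 1.29 in AEG-1-C75S, with a log2 interval that includes 0 in the former (-0.21 to 0.73) and not in the latter (0.08 to 0.64). Gadd45b and Gadd45a were at 1.27 to 1.35 in each other's spots in AEG-1-C75S but at 0.790 and 0.966 in AEG-1-WT.

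Around the members stood 12 lists of pathway genes, 175 genes in all, of which 8 are in more than 1 list. The kinases that GADD45 proteins act through were mostly level: of 11 tested, 0 were higher, 2 were lower and 9 lay within the limit, with a median log2 ratio of -0.05. Both lower ones encode activators of p38, Map2k6 (MKK6), with 754 UMIs in AEG-1-WT against 273 in AEG-1-C75S and a log2 ratio of -1.45 (-1.65 to -1.24), and Map2k3 (MKK3), with a log2 ratio of -0.52 (-0.64 to -0.40). Mapk14, p38 alpha, was at -0.18 and Mapk11, p38 beta, at 0.25 (-0.09 to 0.59).

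Of 6 other MAP kinase phosphatases tested, 3 were higher and 0 lower, with a median log2 ratio of 0.46. They were Dusp4 (0.83), Dusp5 (0.69) and Dusp6 (0.74), and the last, the ERK phosphatase of the cytoplasm, had 1806 and 2984 UMIs. Dusp16 was at -0.23. Of the 14 genes of AU-rich element binding and deadenylation, 1 was higher, the Zfp36 paralog Zfp36l2 (0.32), and 13 were within the limit, among them Elavl1 (0.19), Hnrnpd (-0.14) and Cnot1 (-0.12). Of 10 mRNAs known as Zfp36 targets, 2 were higher and 2 lower. The hormone Fgf21 was at 2.74 (2.30 to 3.20), on 49 and 322 UMIs, and Myc at 1.47 (1.29 to 1.66), while Plk2 was at -0.45 and Cxcl1 at -0.34.

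The list of p53 targets, to which Cdkn1a and Gadd45a belong by their biology, had 4 higher and 4 lower of 19 tested, with a median log2 ratio of -0.08. Btg2, an antiproliferative early response gene, was at 1.49 (1.36 to 1.62), Gdf15 at 0.59 and Fas at 0.48, and Bbc3 (PUMA) was at -0.91 (-1.12 to -0.70). Mdm2 and Ccng1, targets of p53 in most tissues, were at 0.08 (-0.01 to 0.17) and -0.07 (-0.16 to 0.02). Among the 12 other CDK inhibitors, cyclins and CDKs of G1, 0 were higher and 4 were lower, with a median of -0.18: Ccne2 (-0.81), Cdkn1c (-0.70), Cdkn2d (-0.47) and Cdkn1b (-0.35), the p27 gene. Cdkn2c was at -0.16, so the log2 ratios of all 4 other CDK inhibitors tested lay below 0, as did the median of all genes tested, at -0.05.

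The immediate early transcription factors had the most higher genes, 14 of 18 tested with 0 lower, and a median log2 ratio of 0.76. Fosb was at 3.18 (2.60 to 3.81), Fos at 3.11 (2.87 to 3.35), Atf3 at 2.26 and Nr4a1 at 1.80 (1.45 to 2.17). The NF-kB feedback genes had 0 of 16 past the limit in either direction and a median of -0.04. Relb (0.29), Icam1 (0.24), Nfkbiz (-0.17) and Rel (-0.16) were the farthest from 0.

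Glucocorticoid targets were mostly lower, 7 of 13, with 2 higher and a median of -0.45. Mt2 (-1.56) and Mt1 (-1.19), the metallothioneins, Tat (-1.03) and Per1 (-1.02) were the farthest from 0. Genes of cAMP and CREB were split, with 4 of 13 higher and 4 lower and a median of 0.03. They ranged from Igfbp1 (2.66), Nr4a1 (1.80) and G6pc (1.41), the glucose-6-phosphatase, to Tat (-1.03). Of 9 cytokine feedback genes, 4 were higher and 0 lower, with a median of 0.29: Socs2 (1.39), Cish (0.85), Bcl6 (0.70) and Socs3 (0.61). Of 11 genes of TGF-beta and BMP feedback, 3 were higher and 2 lower, with a median of -0.01. Skil was at 0.56, Smad7 at -0.43 and Pmepa1 at -0.91.

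**Figure D4:**
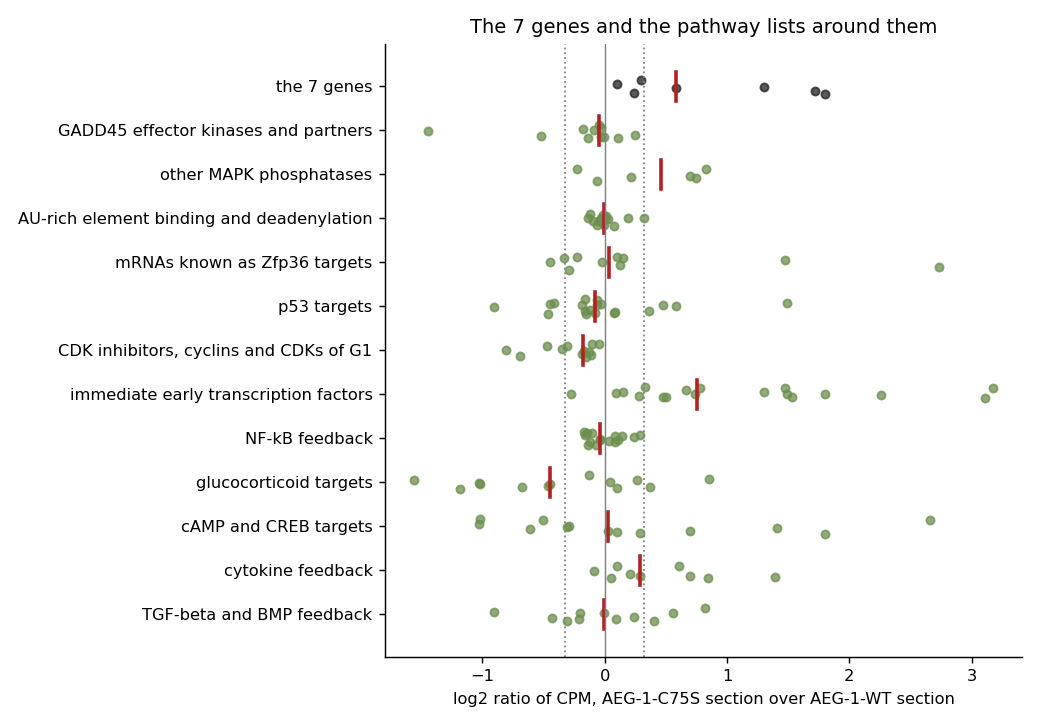
Log2 ratio of CPM of the AEG-1-C75S section over the AEG-1-WT section (horizontal axis) for the 7 genes (black) and for each tested gene of 12 pathway lists (green), with the median of each list in red and dotted lines at the limit of 0.32 in either direction. The immediate early list lies farthest right, with a median of 0.76, and the NF-kB feedback list stays between the dotted lines.

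The genes with a pattern most like each member were sought among 6878 genes with at least 1000 UMIs, by Pearson's r of log2 CPM over the 10 groups of spots, 5 in each section. These groups share their libraries and their depth, so r is a description. By this choice, a named gene tends to share the member's direction between the sections and its course along the bins. Gadd45g was closest to Lepr, the leptin receptor (r = 0.996), followed by Osgin1 (0.993) and Spry4 (0.988). The values of Lepr, chosen for this likeness, show what the match rests on. Its log2 ratio between the sections was 1.64, and that of the periportal over the pericentral bin was 0.71 in AEG-1-WT against -0.09 in AEG-1-C75S. Gadd45b was closest to Kdm3a (0.991), the early response factor Egr1 (0.989) and Elovl5 (0.982). Kdm3a differed by only 0.25 on the log2 scale between the sections, since r compares shapes and not sizes.

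Zfp36 was closest to Slc25a33 (0.992), Crot (0.992) and Hsdl2 (0.990), and Crot is a peroxisomal enzyme of fatty acid handling. All 3 were higher in AEG-1-C75S, by 0.87, 0.50 and 0.65 on the log2 scale. Slc25a33 and Hsdl2 were pericentral by the limit in both sections, and Crot, with log2 ratios of the periportal over the pericentral bin of -0.27 and -0.26, fell short of it. Dusp1 was closest to Skil (0.997), Nptn (0.972) and Ccar1 (0.972), and Gadd45a to Ywhaz (0.978), Abcc9 (r = 0.97) and Igsf11 (0.958). Cdkn1a was closest to Tcea1 (0.986), Igfbp2 (0.981), a marker of mid-lobular hepatocytes, and Btd (0.981). Ier3, with the fewest UMIs, had the lowest likeness, to Alg2 (0.855), Tnpo2 (0.823) and Appl1 (0.821).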

How the data were processed

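RNA was counted on 1 Visium section of an AEG-1-WT and 1 of an AEG-1-C75S mouse. The authors made the deposited UMI counts by aligning the reads to the mouse probe set on mm10 in Space Ranger 2.0.1. The tables hold raw counts of 19465 genes, with no normalization and no column of another sample (0). The study's own clustering, with Seurat 4.3.0, was not used.

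Spots with at most 50000 UMIs were kept (2309 and 2163, with 42246988 and 41674347 UMIs), which removed 7 and 4 spots. UMIs were summed per section or group of spots and divided by the group's total. Poisson and binomial (Clopper-Pearson) intervals at 95% were computed in python 3.11.15 (scipy 1.17.1, pandas 2.3.3, numpy 2.4.6). TMM factors came from R 4.3.3 and edgeR 4.0.16. The count model of edgeR was not fitted, since each genotype has 1 section. The code was tested on simulated data. The limit of 0.32 in log2 ratio applies to genes with at least 200 UMIs.

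The members, gene lists and tests were chosen with earlier results of these data known. Genes were named by a rule: the 7 members, Cyp2f2 and Cyp2e1, the 4 genes of each list farthest from 0 in log2 ratio, and the 3 genes most like each member. Mdm2, Ccng1, Hal, Cyp1a2, Acta2, Cdkn2c, S100a8 and S100a9 were named after their values were seen. Listed genes not found by symbol were not analysed here, and 1 gene that the rule names is not reported here. Alternatives were other spot filters, thinning to 3000 UMIs, other scalings, matching on depth, other minimums, zone groups, an axis of other markers, other shares of rich spots, and Spearman's correlation. Leaving out the highest spot of each gene was chosen after seeing the data. Spot coordinates were not used.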

Additional observations from a re-analysis of the deposited data

Results flagged for a closer look

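The course along the lobule had opposite signs in the sections for 3 of the 7 genes. The share of all genes with opposite signs was not computed, and every interval of Ier3 and Dusp1 includes 0. The difference between the sections was not tested, since each genotype has 1 section. For Gadd45g, the log2 ratio of the periportal over the pericentral bin was 0.87 (0.44 to 1.31) in AEG-1-WT against -0.13 (-0.34 to 0.08) in AEG-1-C75S, a difference of -1.001. For Ier3 it was 0.31 (-0.50 to 1.13) and -0.53 (-1.32 to 0.23), a difference of -0.845 on 25 to 38 UMIs per end bin. For Dusp1 it was 0.07 (-0.18 to 0.32) and -0.06 (-0.28 to 0.16), a difference of -0.12. The intervals of the sections are apart for Gadd45g and overlap for the other 2 genes.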

How the results depend on the processing

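The number of the 7 genes higher by the limit in AEG-1-C75S was 3 to 5 under the 12 alternatives, against 4. The 3 came from counting only genes with at least 1000 UMIs, which leaves out Cdkn1a. Under 10 of the alternatives, Gadd45b kept log2 ratios of 1.16 to 1.38 and Gadd45g of 1.62 to 1.86. Those of Zfp36 were 0.58 to 0.64 and those of Cdkn1a 1.59 to 2.35. Ier3 ranged from -0.12 to 0.24. The number of genes with a course past the limit in both sections, 2 with 5 bins, was 1 with 3 bins, 1 with 10 bins, 1 with pooled cutpoints and 1 on the axis of other zone markers. Zfp36 in AEG-1-WT stood at -0.26 with 3 bins, short of the limit of 0.32, and at -0.31 with pooled cutpoints, just short of it. Just short, too, were Zfp36 in AEG-1-C75S at -0.31 with 10 bins and Gadd45a in AEG-1-WT at -0.31 on the other axis. The interval of Gadd45a in AEG-1-WT on the other axis was -0.64 to 0.01 and includes 0. After thinning, the course of Gadd45b in AEG-1-WT moved from -0.04 to -0.74 and that of Gadd45g in AEG-1-C75S from -0.13 to -0.53. Both were past the limit, with intervals that include 0. In AEG-1-C75S, Gadd45a moved from -0.94 to -0.57, Zfp36 from -0.38 to -0.52 and Gadd45b from -0.25 to 0.10. The thinned intervals of Gadd45a included 0 in both sections. Zfp36 in AEG-1-WT was then at -0.27 (-0.64 to 0.10), short of the limit, and its interval in AEG-1-C75S was -0.83 to -0.21. The number of marker list and gene combinations past the limit, 3, was 5 with the richest 5% of spots. The number of ordered pairs, 1, was 2 with 5% of spots and 6 after thinning, where few UMIs remain. The direction of these pairs is not given here, so whether any gathered under these settings cannot be decided. Of the 21 genes named as most like a member, 7 were also named by Spearman's correlation. No gene's ratio between the sections or between the end bins that was past the limit, with an interval off 0, changed direction under any alternative. For spots rich in a marker list or in a member, only counts are given under the alternatives. No paired analysis was possible because each genotype has 1 section. Depth limits Ier3 and Cdkn1a most, with 133 to 432 UMIs per section. Mouse, section and genotype cannot be told apart.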
